A study of Homo sapiens with 6 samples.

Results

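The genes described here are 10 transcription factors and feedback genes of the integrated stress response, ATF4, DDIT3, TRIB3, CHAC1, SESN2, ATF3, ATF5, CEBPB, PPP1R15A and NUPR1, among the 58735 genes of an RNA-seq table. They were chosen by symbol, from known biology and with results of the same comparison in view, so their differences are given as a description without a p-value. All 10 symbols were found in the table, and all 10 passed the filter on low counts. RNA was taken 48 h after transfection of cells labelled MG63, an established human osteosarcoma line, with siRNA against FUBP1 (siFUBP1, 3 samples) or with a negative control (siMock, 3 samples). The table was made to look for genes downstream of FUBP1, a single-strand DNA-binding and RNA-binding protein. Only 1 cell line was used, the sources used here do not say which FUBP1 siRNA was sequenced, and the labels do not say that the samples came from separate cultures. The study's methods state in general that experiments were repeated, without saying how the sequenced samples relate to those repeats, so p-values measure the spread between these samples, which may be technical.

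The integrated stress response is the program a cell starts when kinases phosphorylate the alpha subunit of the translation factor eIF2. General translation then falls, while a few mRNAs with short upstream reading frames, ATF4 above all, are translated more, and ATF4 switches on genes for amino acid supply, redox balance and, when stress lasts, cell death. DDIT3 (CHOP), ATF3, ATF5 and CEBPB are partner or downstream factors, and PPP1R15A (GADD34) closes the loop by bringing a phosphatase to eIF2. Messenger RNA was measured here, and neither protein nor eIF2 phosphorylation was.

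Total counts were 16309900 to 17484313 per sample. FUBP1 (chromosome 1, 77944055 to 77979110, minus strand) had 3872, 4331 and 4282 reads in the siMock samples against 749, 752 and 926 in the siFUBP1 samples, a log2 fold change of -2.44 ± 0.09 (SE) that left 18.4% of the siMock level. The markers of the labelled cell type were in part absent. COL1A2, a chain of the main bone collagen, had 0 reads in every sample, SPARC (osteonectin) had 0 to 5, and ALPL and SP7 had at most 2, whereas COL1A1 had 769 to 2000 and VIM 2312 to 3731. RUNX2, the main factor of osteoblast fate, had 39 to 97 reads per sample in siFUBP1 against 6 to 8 in siMock, and was called higher (log2 3.15, edgeR adjusted p = 4.53e-08). The keratin KRT8, an epithelial marker, had 16128 to 34970 reads and KRT18 had 7498 to 12282. KRT8 and KRT18 share 525 exonic bases on opposite strands, and VIM shares 641 with the antisense gene VIM-AS1. The sources used here do not state whether the counting used strand. Of the 6 epithelial markers, 2 had at most 5 reads in every sample, 1 of them 0, and the summed level of the list was 2523.5 to 2896 CPM (reads scaled to library size) in siMock and 1364.4 to 1494.7 CPM in siFUBP1. For the 10 osteoblast and mesenchymal markers the sums were 373 to 380 CPM and 299 to 329 CPM, 4 of the 10 had at most 5 reads in every sample, and the blood and the endothelial list each summed to at most 5.17 CPM in any sample. Both main sums were lower in siFUBP1, but single markers went different ways. RUNX2 was at 8.88 times and VIM at 1.3 times the siMock level, against 0.402 for COL1A1 and 0.578 for FN1. The epithelial sum was carried by KRT8 at 0.499 and KRT18 at 0.633 times the siMock level, while EPCAM, at 1.14 times, did not pass the test (edgeR adjusted p = 0.413). The part of these markers in the results was not tested. In bulk RNA, fewer cells of a type and less RNA per cell cannot be told apart.

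Sequence features were looked up first, because upstream reading frames and a shared promoter element are what this family is known for. The choice from known biology is tied to these features, so the shares below are a description and not independent of the choice. In GENCODE 29, on the chosen transcript of each gene, 8 of the 10 had at least 1 upstream ATG in the leader before the coding sequence, a feature of 51.1% of the 12608 tested genes with a coding transcript. An upstream frame that runs past the start of the coding sequence was present in 4 of the 10, ATF4, DDIT3, ATF3 and ATF5, and in 16.4% of the tested genes. The leader of the chosen ATF4 transcript, picked by annotation and not by its level in these cells, was 882 bases long. It held 7 upstream ATGs, of which 5 opened frames that closed within the leader and 2 opened frames that ran into the coding sequence. DDIT3 and ATF5 held both kinds too, whereas TRIB3, SESN2, PPP1R15A and NUPR1 held only frames that closed within the leader. CHAC1, with an annotated leader of 20 bases, and CEBPB held none. These are letters of the annotation and say nothing of use in these cells.

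For 9 of the 10 genes RefSeq gave promoter windows from 250 bases before to 50 after a start site (GRCh38.p14). Each window was searched on both strands for TGATGNAA, the core of the C/EBP-ATF response element bound by ATF4 dimers, for TGACGT, the short CRE motif bound by ATF and CREB factors, and for the ER stress element bound by ATF6, whose outer parts lie 9 bases apart. The first motif was found for ATF3 and CHAC1, against 4.46% of the 27305 genes in the table. The short CRE motif was found for PPP1R15A alone of the 9, against 9.64% of genes. The ER stress element was found for none of the 9 and for 0.0916% of genes. A match is a description and not a binding site, and no match says only that the letters are not in this window. The windows with a match run 5′ to 3′ on the strand of the gene, which is the plus strand for all 3 genes. The motif is in capitals. In the last window only the first of the overlapping matches is, and the reverse match also covers the next lower-case bases, ca.
ATF3, upstream of the gene at chr1:212565205-212565234, motif from position -191: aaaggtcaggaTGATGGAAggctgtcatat
CHAC1, at chr15:40953251-40953280, 209 bases before the RefSeq start and within the GENCODE gene span, motif on the reverse strand: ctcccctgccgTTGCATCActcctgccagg
PPP1R15A, upstream of the gene at chr19:48872257-48872286, motif from position -152: gaaactccgccgTGACGTtgcaaaagctgg
PPP1R15A, upstream of the gene at chr19:48872351-48872380, motif from position -58 and again on the reverse strand from position -56: cgcctctcttcgTGACGTcagcacgccggg

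Transcripts of 8 of the 10 genes were higher in every siFUBP1 sample than in any siMock sample, by fitted differences from 2.10-fold for ATF3 to 11.4-fold for NUPR1. ATF5 was lower in every siFUBP1 sample, and CEBPB overlapped between the groups. With a call defined as an adjusted p below 0.05 (edgeR's quasi-likelihood F test, Benjamini-Hochberg over 16116 genes) and a log2 fold change beyond 1, 8 of the 10 were called higher and 0 lower. Of all genes tested, 8.16% were called higher and 9.13% lower, and at any fold 30.1% passed the adjusted p upward and 30.1% downward. The balance of directions depends on the scaling, since 1315 genes were called higher and 1472 lower here, but 1620 and 1229 with scaling by library totals alone. Every siFUBP1 sample lay above every siMock sample for 32.2% of all genes and below for 31.7%. Since the 10 genes were selected on this comparison, nothing is read from their count. Their median log2 fold change was 2.26, and that of all genes was 0.002.

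**Figure D1:**
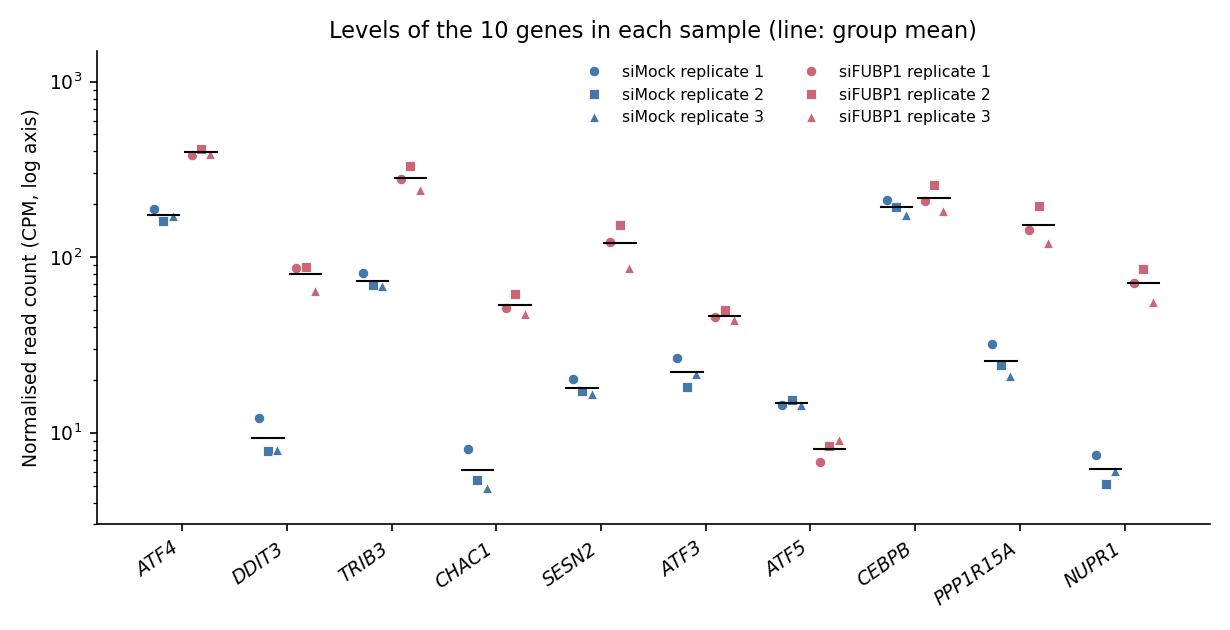
Normalised read count (CPM, log axis) of the 10 genes in each of the 6 samples, with a line at the mean of each group of 3. The siFUBP1 points lie above the siMock points for 8 genes, below them for ATF5, and among them for CEBPB.

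ATF4, the factor at the centre of the response (chromosome 22, 39519695 to 39522685, plus strand), was at 187, 161 and 171 CPM in the siMock samples and at 383, 415 and 387 CPM in the siFUBP1 samples. The groups were well apart, with the lowest siFUBP1 sample at 2.05 times the highest siMock sample. The log2 fold change was 1.19 ± 0.08 (SE), or 228% of the siMock level, with 2679 or more reads behind each value. Among 10434 protein-coding genes with enough reads to compare, the 3 whose levels over the 6 samples, each relative to its siMock mean, lay nearest to those of ATF4 were PPP3CB, CEBPG and VEGFA. Their root mean square distances were 0.021, 0.041 and 0.053 on the log2 scale. This measure depends largely on the size of the group difference, and their log2 fold changes were 1.18, 1.21 and 1.21. Shared regulation was not tested. PPP3CB encodes a catalytic subunit of calcineurin, CEBPG a C/EBP factor that dimerizes with ATF4, and VEGFA a growth factor of blood vessels. Of the other 9 genes the nearest was ATF3, at 0.12.

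DDIT3, which encodes CHOP (chromosome 12, 57516588 to 57521737, minus strand), was at 12.2, 7.87 and 7.93 CPM in siMock. It stood at 86.3, 88.4 and 64.3 CPM in siFUBP1. All 3 siFUBP1 samples were at least 5.25 times the highest siMock sample, and the log2 fold change was 3.09 ± 0.17 (SE). DDIT3 shares 355 exonic bases with MARS and 58 with MBD6 on the opposite strand and 105 with AC022506.1 (0 reads) on its own, and the sources used here do not state whether the counting used strand. MARS, the methionyl-tRNA synthetase gene, had a mean of 98.7 CPM in siMock and 205 CPM in siFUBP1, a log2 fold change of 1.05. MBD6 had means of 31.1 and 59.7 CPM, a log2 fold change of 0.94. The means of DDIT3 were 9.34 and 79.7 CPM. The part of shared bases in the DDIT3 level was not tested.

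NUPR1, a small chromatin-associated stress protein (chromosome 16, 28532708 to 28539174, minus strand), showed the largest difference of the 10. Its levels were 7.46, 5.11 and 6.07 CPM in siMock and 71.3, 86.0 and 55.6 CPM in siFUBP1. The log2 fold change was 3.51 ± 0.17 (SE), and the raw counts went from 87 to 122 reads per sample to 972 to 1495. The sample ranges of the groups were 7.45-fold apart at their nearest points.

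CHAC1, which degrades glutathione (chromosome 15, 40952962 to 40956519, plus strand), followed a like course. It was measured at 8.07, 5.40 and 4.86 CPM in siMock and at 51.3, 61.7 and 47.4 CPM in siFUBP1, with no overlap and a log2 fold change of 3.13 ± 0.15 (SE). Its paralog CHAC2 moved the other way, from 20.7 ± 2.56 to 14.4 ± 0.62 CPM (SD, n = 3). On the log2 scale this was -0.52 (edgeR adjusted p = 3.68e-04), short of the fold threshold.

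SESN2, a leucine sensor that restrains mTORC1 (chromosome 1, 28259527 to 28282491, plus strand), had 20.1, 17.2 and 16.7 CPM in siMock. Its siFUBP1 levels of 122, 153 and 87.1 CPM were all higher but spread the most of the 10 genes in that group, with the highest sample at 1.76 times the lowest. The log2 fold change was 2.75 ± 0.23 (SE). SESN1, a paralog, was lower in siFUBP1 at 8.86 ± 0.30 CPM against 15.5 ± 0.28 CPM (SD, n = 3), and its log2 difference was -0.80 (edgeR adjusted p = 4.49e-06). SESN3 had at most 6 reads in a sample and was not tested.

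TRIB3, a pseudokinase that binds ATF4 and restrains it (chromosome 20, 362835 to 397559, plus strand), is a feedback gene of the response. It was at 81.0, 69.3 and 68.8 CPM in siMock and at 279, 329 and 242 CPM in siFUBP1. The groups lay at least 2.98-fold apart, and the log2 fold change was 1.95 ± 0.10 (SE). The paralog TRIB1 overlapped between the groups, with a log2 difference of -0.18 (edgeR adjusted p = 0.205), and TRIB2 had at most 4 reads in a sample.

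PPP1R15A is the stress-induced subunit that directs protein phosphatase 1 to eIF2 (chromosome 19, 48872392 to 48876057, plus strand), and its promoter windows with CRE motifs are given above. Levels of 31.9, 24.3 and 21.0 CPM in siMock stood against 143, 196 and 120 CPM in siFUBP1. No sample of one group reached the other, and the log2 fold change was 2.57 ± 0.26 (SE), the widest standard error of the 10. PPP1R15B, the constitutive counterpart, was lower in siFUBP1, at 289 ± 18.1 CPM against 388 ± 1.87 CPM (SD, n = 3), by -0.43 on the log2 scale (edgeR adjusted p = 2.93e-05).

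**Figure D2:**
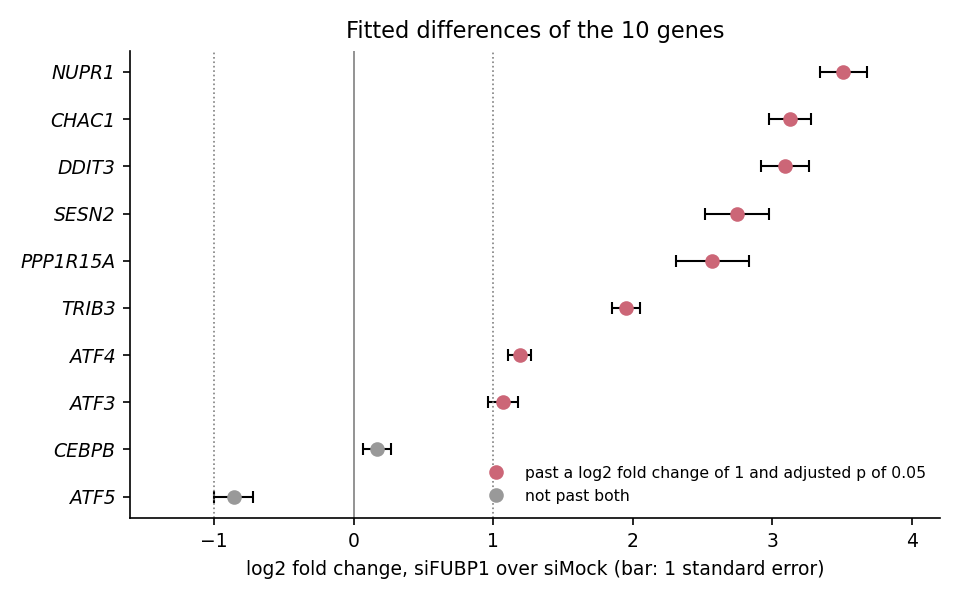
Fitted log2 fold change of siFUBP1 over siMock for each of the 10 genes, with a bar of 1 standard error (3 samples a group) and dotted lines at 1 and -1. NUPR1, CHAC1 and DDIT3 lie above 3, ATF4 and ATF3 lie close to the line at 1, and CEBPB and ATF5 are not past both thresholds.

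ATF3, an immediate early and stress factor (chromosome 1, 212565334 to 212620777, plus strand), was the smallest of the called differences. It was at 26.5, 18.3 and 21.5 CPM in siMock and at 45.4, 50.2 and 43.9 CPM in siFUBP1. The groups did not overlap, and the log2 fold change was 1.07 ± 0.11 (SE). The call was lost with limma on log2(FPKM + 1), once GC content and length were corrected for (chosen after seeing the data), and without siMock replicate 2, where the log2 fold change was 0.96, 0.99 and 0.95.

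ATF5, a factor of the mitochondrial stress program (chromosome 19, 49928702 to 49933935, plus strand), went against ATF4, DDIT3 and ATF3. It was at 14.4, 15.3 and 14.3 CPM in siMock and at 6.80, 8.40 and 9.03 CPM in siFUBP1. All 3 siFUBP1 samples were lower, at 0.445 to 0.631 times the siMock level when the extremes of the groups are set against each other, and the log2 fold change was -0.86 ± 0.14 (SE). The fold threshold of 1 was not passed under any of the 16 alternatives. ATF5 shares 626 exonic bases with NUP62, a nucleoporin gene on the opposite strand whose log2 fold change was -0.15, and 75 with IL4I1, which had at most 7 reads in a sample.

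CEBPB, a C/EBP factor of stress and inflammation (chromosome 20, 50190734 to 50192689, plus strand), was the only one of the 10 whose groups overlapped. The siMock samples were at 212, 192 and 175 CPM and the siFUBP1 samples at 210, 257 and 183 CPM. The log2 fold change was 0.17 ± 0.10 (SE), with a range of 0.03 to 0.46 over the alternatives, so a small difference was not resolved with 3 samples a group. Its antisense neighbour CEBPB-AS1, which shares 231 exonic bases with it, was higher in every siFUBP1 sample, at 82 to 129 reads against 19 to 23 in siMock.

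The samples of each group also had an order in common across the genes. In siMock, replicate 1 was the highest of its group for 9 of the 10 genes. In siFUBP1, replicate 2 was the highest for 9 and replicate 3 the lowest for 8. The median level of the 10 genes, relative to each gene's siMock mean, was 0.21, -0.10 and -0.10 on the log2 scale in siMock replicates 1 to 3. It was 2.20, 2.55 and 1.97 in siFUBP1 replicates 1 to 3. The spread within groups was small beside the gap between them. Since the genes were chosen with this comparison in view, the size of the gap is a description only. Without siMock replicate 1 and siFUBP1 replicate 2 together, an alternative chosen after seeing the data, 8 genes were still called higher and the median log2 fold change was 2.23.

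**Figure D3:**
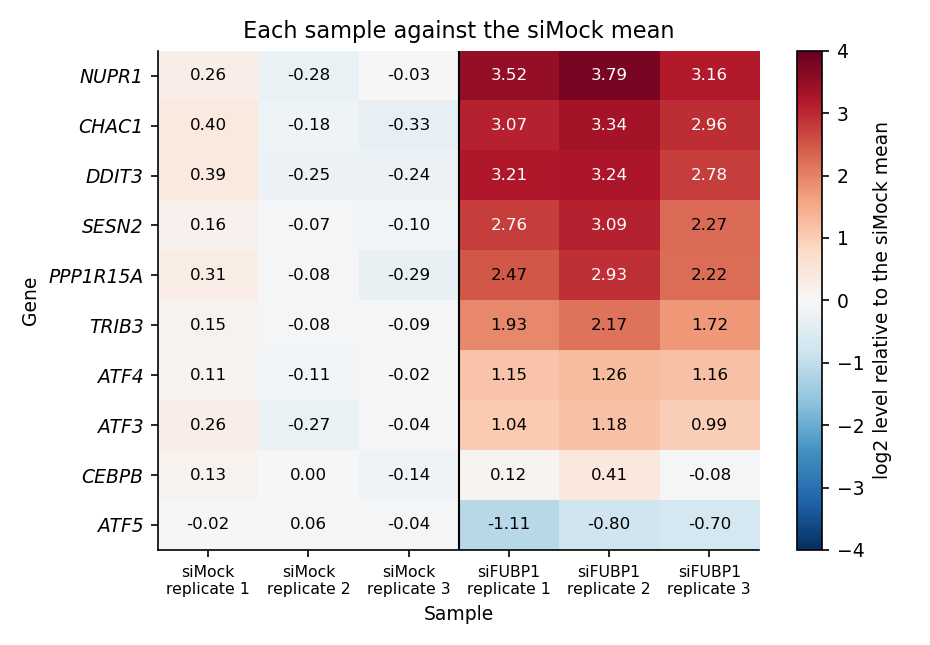
Level of each gene in each of the 6 samples on the log2 scale, relative to the mean of the 3 siMock samples, with genes ordered by their fitted difference. Among the siFUBP1 samples replicate 2 holds the highest value for 9 genes, and the ATF5 row is below 0 in all 3.

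Per length, the order of the genes differed between the groups. FPKM, which divides the reads by exonic length and library size, was used for this, with exonic lengths of 1307 bases for DDIT3 to 5674 for NUPR1. In siMock, CEBPB led at 97.6 ± 9.51 FPKM (SD, n = 3), followed by ATF4 at 68.2 ± 5.24 FPKM and TRIB3 at 21.1 ± 1.99 FPKM, and each stood apart from the next. PPP1R15A, DDIT3, ATF3, SESN2 and ATF5 came next, from 8.23 down to 4.92 FPKM, and in this run each overlapped with its neighbour. CHAC1 at 2.94 FPKM and NUPR1 at 1.08 FPKM were the lowest and stood apart. The place of NUPR1 depends on its annotated length, and which transcripts were present was not determined. Without division by length, mean CHAC1 and NUPR1 levels were 6.11 and 6.22 CPM in siMock and 53.5 and 71.0 CPM in siFUBP1. In siFUBP1 ATF4 was first at 156 ± 7.35 FPKM (SD, n = 3), apart from CEBPB at 110 ± 19.4 FPKM, which overlapped with TRIB3 at 82.1 ± 12.9 FPKM. DDIT3 at 60.7 FPKM overlapped with PPP1R15A at 49.2 FPKM, as did PPP1R15A with SESN2 and SESN2 with CHAC1. NUPR1 at 12.5 FPKM and ATF3 at 11.5 FPKM overlapped, and ATF5 was last at 2.72 FPKM.

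**Figure D4:**
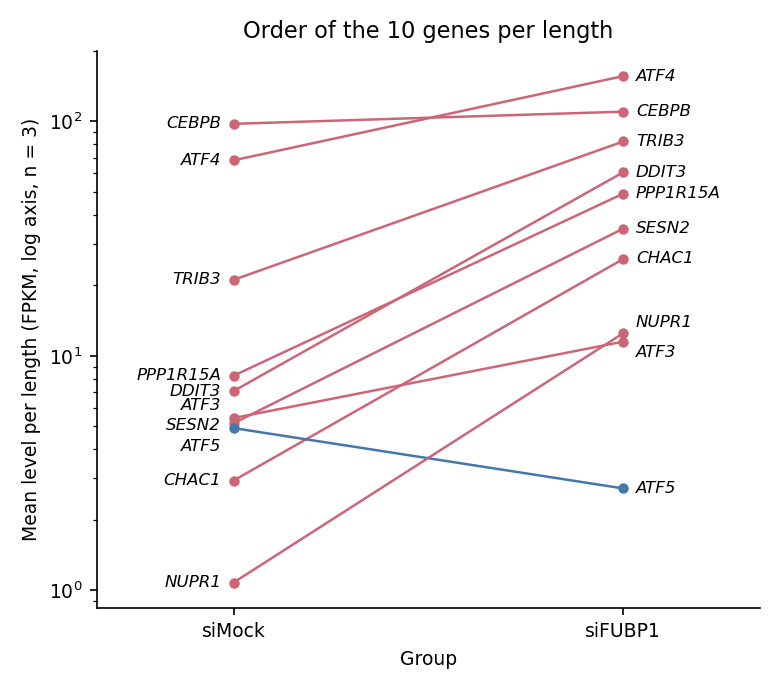
Mean level per length (FPKM, log axis, 3 samples a group) of the 10 genes in siMock and siFUBP1, joined by lines that are red where the siFUBP1 mean is higher and blue where it is lower. ATF4 passes CEBPB to lead in siFUBP1, NUPR1 climbs from 1.08 to 12.5 FPKM, and ATF5 goes from 4.92 to 2.72 FPKM.

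The machinery that starts and ends the response was set beside the 10 genes, in a list of 28 genes for eIF2 kinases, eIF2 and eIF2B subunits and their regulators, all tested. Of these, 1 was called higher and 0 lower, or 3.57% called against 17.3% of all genes tested. At any fold 19 passed the adjusted p upward and 7 downward, against 30.1% of all genes tested in each direction. The adjusted p was not passed by 2 of the 28, nor by 6421 of all 16116 genes tested. Few of these genes were thus past the fold threshold, but most passed the adjusted p with smaller differences. The median log2 fold change was 0.33. The called gene was EIF2S2, the beta subunit of eIF2, at 395 ± 25.3 CPM against 194 ± 4.75 CPM (SD, n = 3), or 1.02 on the log2 scale (edgeR adjusted p = 1.68e-11). This call was lost without siFUBP1 replicate 2, alone or together with siMock replicate 1 (0.98 in both), and after GC content and length were corrected for (0.93). Among the 4 eIF2 kinases, EIF2AK4 (GCN2, which senses uncharged tRNA) had a log2 fold change of 0.48, EIF2AK3 (PERK, of the endoplasmic reticulum) of 0.41 and EIF2AK1 (HRI, of heme and mitochondrial stress) of 0.31, each with an adjusted p of 9.08e-04 or less from edgeR's test. EIF2AK2 (PKR, which binds double-stranded RNA) was at -0.07 (adjusted p = 0.528) and turned to 0.03 with scaling by library totals alone. EIF2S1, the subunit that the kinases phosphorylate, was at 0.26 (adjusted p = 0.00498 from edgeR's test). DENR, which helps reinitiation, and OMA1, the mitochondrial protease of the path to HRI, came close to the fold threshold at 0.98 and 0.94, while DELE1, the protein OMA1 cleaves, was at -0.51 (all 3 named after their values were seen).

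**Figure D5:**
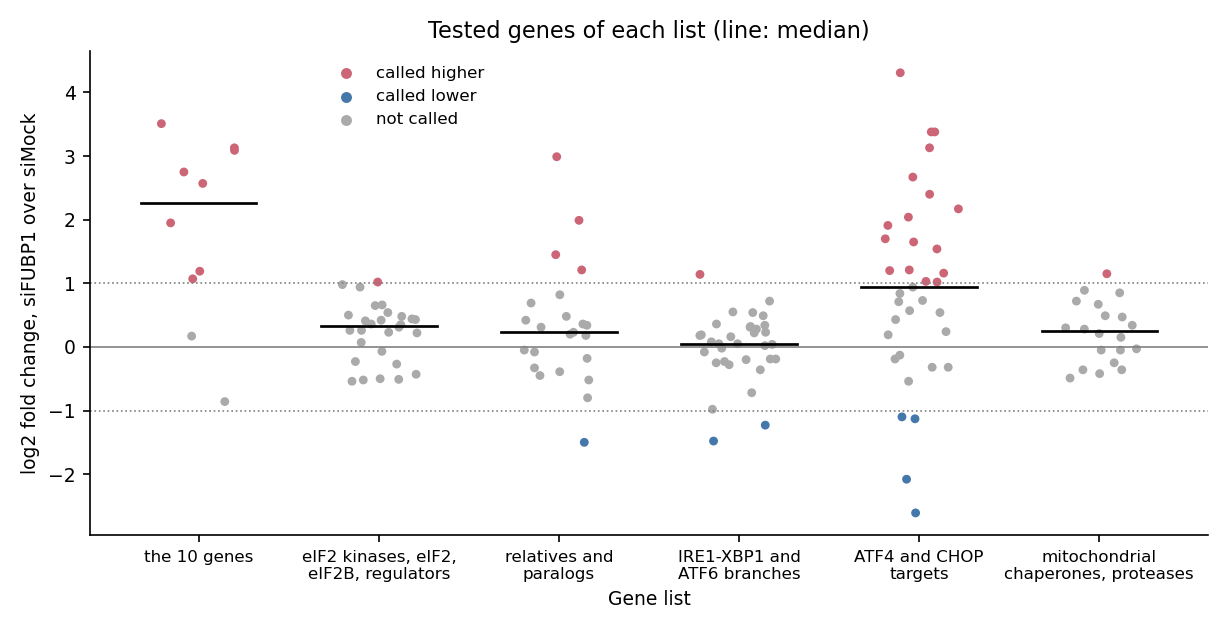
Log2 fold change of siFUBP1 over siMock for each tested gene of the 10 and of the 5 lists, coloured by call, with a line at the median of each list. Called genes are most of the 10 and 21 of 35 tested target genes, and at most 5 genes in each of the other lists.

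Among 27 genes listed as relatives, mostly ATF, CREB and C/EBP factors, partners and paralogs, 23 were tested. Of these, 4 were called higher and 1 lower, or 21.7% called against 17.3% of all genes tested. The median log2 fold change was 0.23. GADD45A, a growth arrest gene, was highest at 2.99 (adjusted p = 2.13e-04 from edgeR's test). GADD45A and GADD45B were placed in the list, but are neither ATF, CREB or C/EBP factors nor paralogs of the genes described. The 3 siFUBP1 samples of GADD45A had 1389 to 2465 reads against 179 to 253 in siMock. ATF1, a CREB-type activator, was at 1.45 (adjusted p = 2.06e-14) and CEBPG at 1.21 (adjusted p = 2.32e-12). CEBPA, a factor of differentiation, was the lower one, at 61.1 ± 5.88 CPM against 173 ± 17.0 CPM (SD, n = 3), or -1.5 on the log2 scale (edgeR adjusted p = 1.26e-13). It shares 659 and 482 exonic bases with a pair of antisense genes. The remaining called gene, CREB5, had at most 28 reads in a sample and is named after its value was seen. ATF6, at 0.20, was not settled by the test: its adjusted p was 0.0564 in edgeR and between 0.00523 and 0.261 over the 16 alternatives (edgeR, DESeq2 or limma), below 0.05 in 7 of them. NUPR2 had 0 reads in every sample.

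The other branches of the unfolded protein response, IRE1 with XBP1 and ATF6 with its chaperones, were covered by 33 genes, all tested. In this list 1 was called higher and 2 lower, or 9.09% called against 17.3% of all genes tested. The adjusted p was not passed by 11 of the 33, nor by 6421 of all 16116 genes tested. The median log2 fold change was 0.06. ERN1, which encodes IRE1, was higher by 1.14 on the log2 scale (edgeR adjusted p = 1.77e-10), and WFS1, an endoplasmic reticulum membrane protein, was lower at -1.48 (adjusted p = 1.35e-13). The ERN1 call was lost with limma on log2(FPKM + 1), at 0.90. DERL3, the other lower gene, had at most 46 reads in a sample and is named after its value was seen. XBP1 was at 0.32 (adjusted p = 6.57e-04) and HSPA5, the chaperone BiP, at 0.28 (adjusted p = 0.00712), both from edgeR's test, and without siMock replicate 2 the adjusted p of HSPA5 was 0.0503. Of the 14 chaperones and folding enzymes of the endoplasmic reticulum, 0 were called by edgeR's test, against 17.3% of all genes tested. At any fold 7 of the 14 passed the adjusted p upward and 1 downward, against 30.1% of all genes in each direction. The log2 fold changes of the 14 lay between -0.20 and 0.55.

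Known targets of ATF4 and CHOP other than the 10 genes made a list of 36, of which 35 were tested. In it 17 were called higher and 4 lower, or 60% called against 17.3% of all genes tested. At any fold 26 passed the adjusted p upward and 7 downward, against 30.1% of all genes tested in each direction. The median log2 fold change was 0.94. The list was written with the behaviour of such genes in these samples known, so it is not independent evidence of a direction. Of 6 enzymes of serine and one-carbon metabolism, 5 were called higher, against 8.16% of all genes tested, with a median of 2.15. Named by rule were ALDH1L2, a mitochondrial folate enzyme, at 3.38 (adjusted p = 2.30e-17), and PSAT1, of serine synthesis, at 2.67 (adjusted p = 3.18e-16), both from edgeR's test. ASNS, the asparagine synthetase gene, had 10 to 15 reads in siMock and 241 to 295 in siFUBP1, or 4.31 on the log2 scale (edgeR adjusted p = 2.01e-15). Since 1985 of its exonic bases are shared with another gene on the same strand, its level is uncertain. STC2, a secreted glycoprotein, rose from 44.3 ± 4.81 to 462 ± 91.3 CPM (SD, n = 3), by 3.38 on the log2 scale (edgeR adjusted p = 2.20e-11). CBS, of transsulfuration, was at 3.13 (adjusted p = 3.34e-04), and the genome holds a near-identical copy that could share its reads.

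The 4 target genes called lower were of different kinds. CDKN1A, the cell cycle inhibitor p21, fell from 233 ± 10.8 to 38.2 ± 4.01 CPM (SD, n = 3), or -2.61 on the log2 scale (edgeR adjusted p = 3.85e-18), and shares 146 exonic bases with an antisense gene. SLC7A5, the LAT1 subunit that imports large neutral amino acids, was at -2.08, from 2606 ± 67.8 to 614 ± 46.7 CPM (SD, n = 3). BCL2L11, the proapoptotic BIM, was at -1.13 and HMOX1, heme oxygenase, at -1.10. The last 3 were named after their values were seen. Among the 7 amino acid transporters of the list, 2 were called higher and 1 lower. Among the 5 cell death and cycle genes 2 were called in each direction. Of all genes tested, 8.16% were called higher and 9.13% lower.

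Mitochondrial chaperones and proteases, of which ATF5 is a known regulator, made a list of 20, all tested. In it 1 was called higher and 0 lower, or 5% called against 17.3% of all genes tested. At any fold 11 passed the adjusted p upward and 4 downward, against 30.1% of all genes tested in each direction. The adjusted p was not passed by 5 of the 20, nor by 6421 of all 16116 genes tested. The median log2 fold change was 0.24. The called gene was LONP1, a matrix protease, at 234 ± 19.8 CPM against 106 ± 6.23 CPM (SD, n = 3), or 1.15 on the log2 scale (edgeR adjusted p = 4.58e-12).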

How the data were processed

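Poly(A) RNA of 6 samples was sequenced. The authors deposited 1 table of 58735 genes with read counts per gene, not normalized. The authors also deposited FPKM values, used here for levels per length, and their own log2 fold changes and p-values, not used. Submitters' processing notes name HISAT2 2.0.5, StringTie 1.3.3b, featureCounts 1.5.0-p3 and DESeq2 1.16.1; strand use is not given in the sources used here. All 58735 genes match GENCODE 29 (GRCh38). Samples were grouped by title.

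Counts were fitted with edgeR 4.0.16 in R 4.3.3 (TMM, factors 0.959 to 1.05, expression filter, robust quasi-likelihood F test, Benjamini-Hochberg over 16116 genes). The standard error is the log2 fold change divided by the root of F. Calls need an adjusted p below 0.05 and a log2 fold change beyond 1. Depth, 16309900 to 17484313 counts, limits precision for the lowest genes. Scripts were tested on simulated data. No samples held identical counts.

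Members and lists were chosen with earlier results of these data known. Named genes are the 10, the targeted gene, preset kinases, branch genes and paralogs, up to 6 called genes per list (mean count 50 or more), and the 3 nearest to ATF4 (mean count 100 or more). Transcripts were chosen by annotation rank, support and length. Alternatives were other scalings, filters and thresholds, DESeq2 1.42.0, limma 3.58.1 on log2(FPKM + 1) and log2(FPKM + 0.1), the replicate number as a block, each sample left out, and, chosen after seeing the data, a GC and length correction and 2 samples left out together.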

Additional observations from a re-analysis of the deposited data

How the results depend on the processing

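Of the 160 values that the 16 alternatives gave for the log2 fold changes of the 10 genes, 154 moved by less than the spread between replicates, 6 moved further and 0 changed sign. Among the other named genes 427 of 432 kept direction and side of the threshold, 4 lost the call and 1 changed sign (EIF2AK2, 0.03 with library total scaling). Called genes of all tested were 731 higher and 931 lower with a mean of at least 50 counts, where fewer genes were tested. They were 462 and 588 with limma on log2(FPKM + 1), and 1104 and 1236 with limma on log2(FPKM + 0.1). Adding 1 shrinks the log2 change of low genes, but its part in these counts was not tested. With no threshold on the fold change they were 4844 and 4851. Calls in the eIF2 list were 3 with library total scaling, 0 with the GC and length correction and 0 to 2 with 1 sample left out (0 without siFUBP1 replicate 2). With no threshold on the fold change, calls were 26 in that list, 13 among relatives, 22 in the other branches, 33 among targets and 15 in the mitochondrial list. The other branches gave 1 call with limma on log2(FPKM + 1). Causes of these differences were not tested. Same-numbered samples correlated at -0.005, 0.024 and 0.155 in their deviations from the group mean. Of the 3 siMock samples, 1 correlated best with its own number. With 3 samples a group these values cannot decide whether the numbers pair the samples, and the labels do not say. With the replicate block 1324 genes were called higher, 1469 lower and 8 of the 10 genes higher, and ATF6 passed the adjusted p (0.0350, edgeR). Library total scaling moved the median of all genes by 0.097 (log2) and gave 1620 calls higher and 1229 lower, against 1315 and 1472. NUPR1 and CHAC1 had 76 to 132 reads per siMock sample, which limits the precision of the largest ratios.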
